A study of Mus musculus with 4 samples.

Results

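Gastrocnemius muscle of exercised, tumor-bearing mice was compared with the same muscle of mice that neither ran nor received tumor cells. The comparison used 2 of the 4 libraries of the series. The cancer exercise library (E+T+) came from CDF1 mice that received CT26 cells, a murine colorectal carcinoma line, through the tail vein and ran on a treadmill at high intensity. The normal control library (E-T-) came from CDF1 mice with neither treatment. The other two groups are given beside it for scale, namely normal exercise (E+T-), which ran without a tumor, and cancer control (E-T+), which carried the tumor without running. According to the methods all mice were male, and the labels give postnatal day 28 as the age in every group, which is the age the methods give for purchase, before the exercise period. Tumor cells were given into the blood, so the muscle was not the injected site. Each group has 1 library, and the sources used here differ on whether it holds RNA of a representative animal or of several. No difference below therefore has a replicate check, none was tested, and animal, library and treatment cannot be told apart.

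Every gene row with a normalised read count of at least 16 in cancer exercise or normal control was taken, which gave 12507 of 23282 rows. A gene was called displaced when the 2 libraries differed at least 2-fold, and near the healthy sedentary level when their ratio was at most 5 to 4, which is 0.32 on the log2 scale. Differences are of log2(normalised read count + 1), and unless named otherwise a number in parentheses is the difference of cancer exercise minus normal control on that scale. Where 4 levels follow each other, they are normalised read counts, first of normal control and normal exercise, then of cancer control and cancer exercise, and 0 stands for no read. The comparisons of cancer exercise and of cancer control with normal control share the normal control library, so that a chance high or low value there moves both the same way.

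Muscle of tumor-bearing animals commonly wastes. In wasting muscle the FoxO factors switch on ubiquitin ligases such as Trim63 (MuRF1) and Fbxo32 (atrogin-1), which mark contractile proteins for the proteasome, and autophagy supplies a parallel route of breakdown. Glucocorticoids and cytokines of the IL-6 family are known drivers of this programme. Endurance exercise is known for its effect on mitochondria, where the respiratory complexes pass electrons to oxygen and the ATP synthase makes ATP. Gastrocnemius of the mouse is mostly fast muscle, rich in glycolytic enzymes and in the calcium buffer parvalbumin.

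The libraries held 11026623 reads in cancer exercise and 11269745 in normal control, with 13226179 in normal exercise and 10647408 in cancer control. The compared rows had a median of 162 reads in cancer exercise and 171 in normal control. Muscle identity was plain in both libraries, with Acta1, the skeletal actin, at 204111 in cancer exercise and 347342 in normal control, and Ckm, the muscle creatine kinase, at 94891 and 116259. Counting error alone seldom put the direction of a displaced gene in doubt, but it left the class of most near genes unsettled. Of the displaced genes, 99.1% had a 95% Clopper-Pearson counting interval that excluded no difference, and 53.8% had one that lay wholly past 2-fold. These genes were selected on the difference itself, so the first of these shares is high in part by construction. Of the near genes, 94.8% had an interval wholly within 2-fold and 27.5% one wholly within the near limits. These intervals cover counting error only and say nothing of the spread between animals.

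Of the 12507 rows, 1384 (11.1%) were at least 2-fold higher in cancer exercise than in normal control and 1803 (14.4%) at least 2-fold lower, so that 3187 (25.5%) were displaced. A further 4096 (32.7%) were near. The median difference over all rows was −0.02, and the 25th and 75th percentiles were −0.57 and 0.50. Over the same rows 4841 were displaced in cancer control and 1675 in normal exercise, each against normal control, and the median absolute difference was 0.54 in cancer exercise, 0.75 in cancer control and 0.36 in normal exercise. At the edge of the 2-fold rule, Slc35f5 (320 in normal control and 641 in cancer exercise) and Nr3c1 (1253 and 626) were just counted as displaced, and Ly6c1 (2924 and 5840) and Abhd8 (248 and 124) just were not. The plot of level against difference shows that displaced genes occurred at every level, including the most abundant transcripts.

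**Figure D1:**
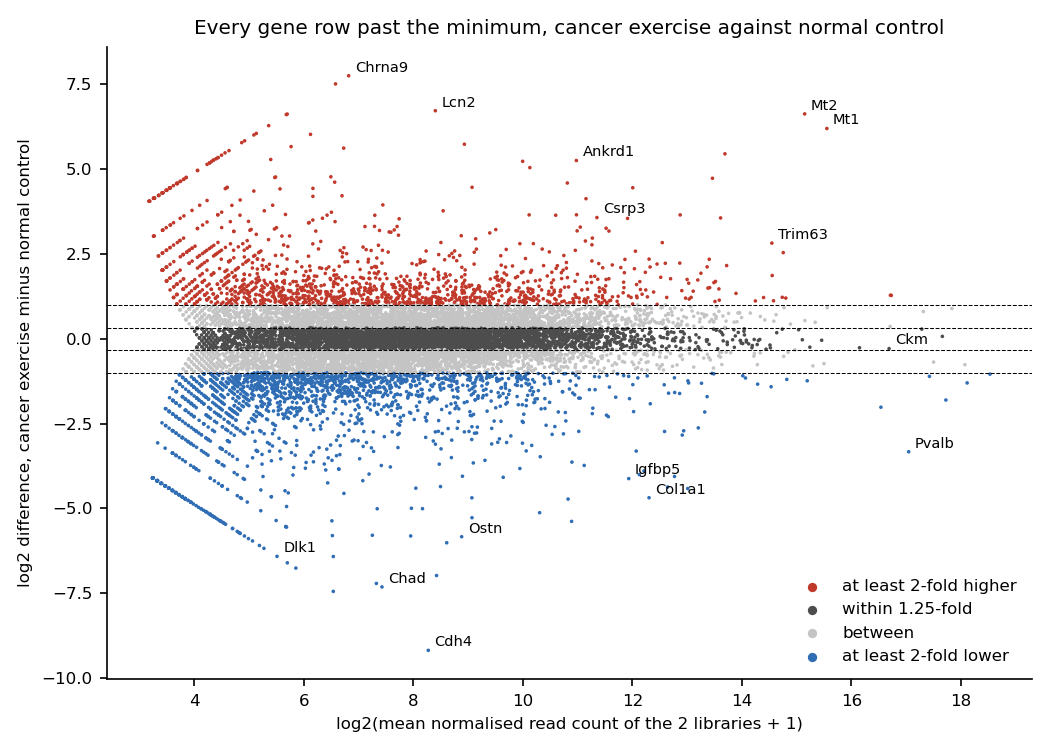
Each point is 1 of the 12507 gene rows, with the log2 of the mean normalised read count of the 2 libraries plus 1 on the horizontal axis and the log2 difference, cancer exercise minus normal control, on the vertical axis. Dashed lines mark the displaced and near limits. Red points (1384) and blue points (1803) are at least 2-fold higher and lower, and dark points (4096) are near. Mt1 and Mt2 stand out among abundant transcripts above the axis and Pvalb and Col1a1 below it.

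The genes were then read by pathway. Against a background of 32.7% near and 25.5% displaced, lists of respiratory chain, tricarboxylic acid (TCA) cycle, antioxidant and amino acid genes held larger shares of near genes, whereas lists of collagens, other matrix proteins, slow-fibre genes, immediate-early genes, atrophy ligases and glucocorticoid targets held larger shares of displaced genes. The autophagy list exceeded the background on both counts, with 14 of 32 near and 10 of 32 displaced. These shares are descriptions of 2 libraries.

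**Figure D2:**
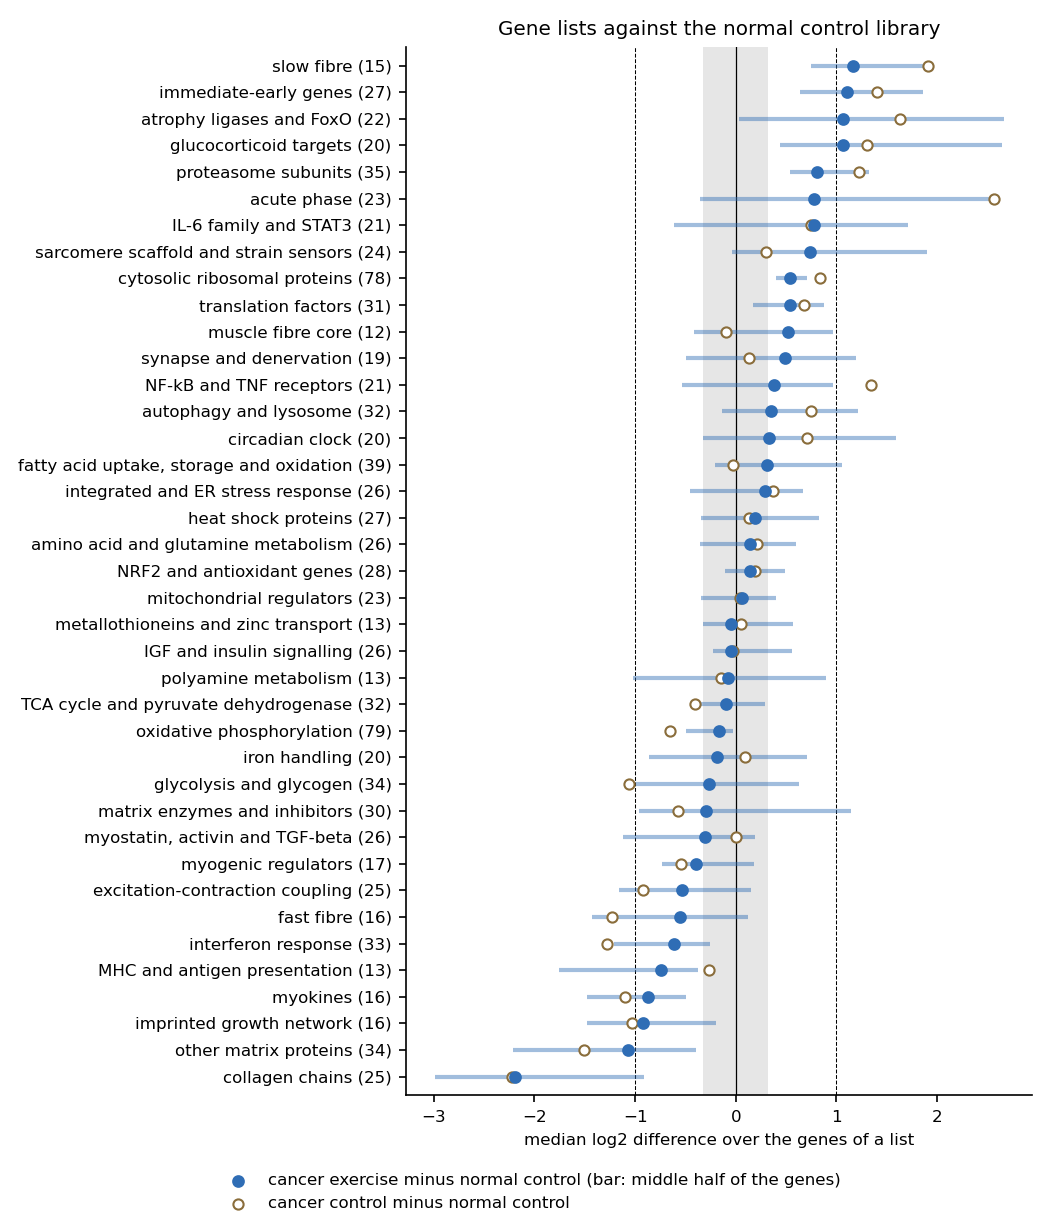
Each row is a gene list, with the number of genes measured in parentheses. The horizontal axis is the median log2 difference from normal control, as a filled point for cancer exercise (the bar spans the 25th to the 75th percentile of the genes) and an open point for cancer control. The shaded band is the near range and the dashed lines mark 2-fold. Oxidative phosphorylation lies in the band at −0.17 in cancer exercise and outside it at −0.65 in cancer control, and collagen chains lie near −2.2 in both.

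Genes of oxidative phosphorylation were mostly near the healthy level. Of 79 subunits measured, 47 were near in cancer exercise, none was 2-fold higher and 2 were 2-fold lower, with a median of −0.17. In cancer control 17 were near and 22 were 2-fold lower, with a median of −0.65, and in normal exercise 42 were near, with a median of −0.30. Cox7a2, a subunit of cytochrome c oxidase, was at 20551, 16554, 14827 and 19810, so cancer exercise was level with normal control and cancer control was below both. Cox7b of the same complex was at 25690, 17891, 15180 and 21305, and Atp5j2 of the ATP synthase was at 24627, 15531, 13959 and 19892. The 2 subunits still 2-fold lower were Cox7a1, the muscle isoform of a cytochrome c oxidase subunit, at 9627, 6084, 2253 and 4329 (−1.15, counting interval −1.21 to −1.10), and Ndufb2 of complex I, at 4036, 2498, 1130 and 1903 (−1.08). At the other end Cox6a2, a muscle isoform in cytochrome c oxidase, was at 33502, 47841, 58655 and 62996, higher in each of the other libraries than in normal control.

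The complexes were divided by subunit name after the values had been seen. In cancer exercise 22 of 37 complex I subunits, 2 of 4 complex II subunits, 5 of 9 complex III subunits, 10 of 13 complex IV subunits and 8 of 15 ATP synthase subunits were near. The medians lay between −0.27 for complex III and −0.05 for complex IV. In cancer control the medians of the same complexes lay between −0.73 and −0.38. All 5 medians were thus closer to 0 in cancer exercise than in cancer control, whereas single subunits ranged from −1.15 to 0.91.

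The TCA cycle and pyruvate dehydrogenase list gave a like picture. Of 32 genes, 14 were near in cancer exercise, 2 were higher and 1 was lower, with a median of −0.10, beside 8 near, 2 higher and 7 lower in cancer control, with a median of −0.40. Sdhb, the iron-sulphur subunit of succinate dehydrogenase, was at 14085, 10711, 9534 and 13124, and Mdh2, the mitochondrial malate dehydrogenase, at 10719, 9560, 7548 and 10484. The 3 displaced genes had different roles. Pdk4, the kinase that shuts pyruvate dehydrogenase, was at 427, 21.7, 1060 and 969 (1.18), and Pdp1, the phosphatase that opens it, at 1902, 2131, 371 and 557 (−1.77). Got2, the mitochondrial aspartate transaminase, was at 2662, 2602, 4441 and 6602 (1.31).

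Among 23 regulators of mitochondria, 9 were near, 1 was higher and 2 were lower. Mfn1 and Mfn2, which fuse mitochondrial outer membranes, were both near, at −0.02 and 0.15. Ppargc1a, the coactivator PGC-1α, chosen for description after its values were seen, was at 514, 391, 320 and 456, and its relative Ppargc1b at 220, 217, 62.2 and 194. The 2 displaced lower were Prkag3, the fast-muscle γ subunit of AMP-activated kinase, at 1842, 1838, 31.1 and 129 (−3.83), and Sirt3, a mitochondrial deacetylase, at 214, 45.3, 21.5 and 40.1 (−2.38). Sirt1, a nuclear deacetylase, was higher, at 145, 136, 395 and 303 (1.06). Against a list median of 0.06, these 3 were the only regulators past 2-fold.

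Antioxidant genes were also mostly near. Of 28, 16 were near, 1 was higher and 2 were lower, beside 9 near and 8 higher in cancer control. Prdx1, a peroxiredoxin, was at 6936, 5087, 4986 and 6676, and Sod2, the mitochondrial superoxide dismutase, at 3516, 3354, 2083 and 3204. Hmox1, the heme-degrading enzyme, was at 23.5, 28.2, 239 and 74.7 (1.63), so its level stood between those of cancer control and normal control. The glutathione transferases Gsta3 (218, 56.6, 57.9 and 40.1) and Gsta4 (312, 239, 188 and 41.2) were lower, by −2.41 and −2.89.

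Amino acid and glutamine genes were near in 11 of 26 cases, with 3 higher and 0 lower. The 3 were Slc3a2, the heavy chain of several amino acid transporters (605, 1227, 1992 and 2183), Glul, the glutamine synthetase (5594, 2887, 22226 and 15726), and Slc7a8, a neutral amino acid transporter (79.8, 71.2, 665 and 212). In the insulin and IGF list 11 of 26 were near, among them the IGF-binding proteins Igfbp4 and Igfbp7. Members far from the healthy level lay on both sides. Akt1, a kinase of the insulin pathway, was at 1220, 3160, 7611 and 7296 (2.58), and Irs2, an adaptor of the receptor, at 9.63, 4.70, 173 and 60.6 (2.54). Igfbp5, an IGF-binding protein abundant in muscle, was at 7403, 5052, 297 and 424 (−4.12), and the adaptor Irs1 at 1183, 871, 311 and 455 (−1.38). The near median of this list, −0.05, therefore joined genes that differed in opposite directions.

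In the myostatin, activin and TGF-β list 9 of 26 were near, 1 was higher and 7 were lower. Mstn, the ligand myostatin that limits muscle mass, was at 420, 178, 208 and 391, near normal control in cancer exercise. Among receptors and signal carriers Bmpr2, Smad4 and Smad5 were near. Inhbb, the chain of activin B, was at 9.63, 20.9, 209 and 196 (4.21), and its relative Inhba, the chain of activin A, at 27.6, 38.3, 17.2 and 4.40 (−2.41). Gdf11, a ligand close to myostatin, was at 36.0, 22.8, 0 and 1.15 on 1 read in cancer exercise (−4.11, counting interval −10.41 to −2.49). Ltbp4, which holds latent TGF-β in the matrix, was at 886, 572, 199 and 183 (−2.27).

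**Figure D3:**
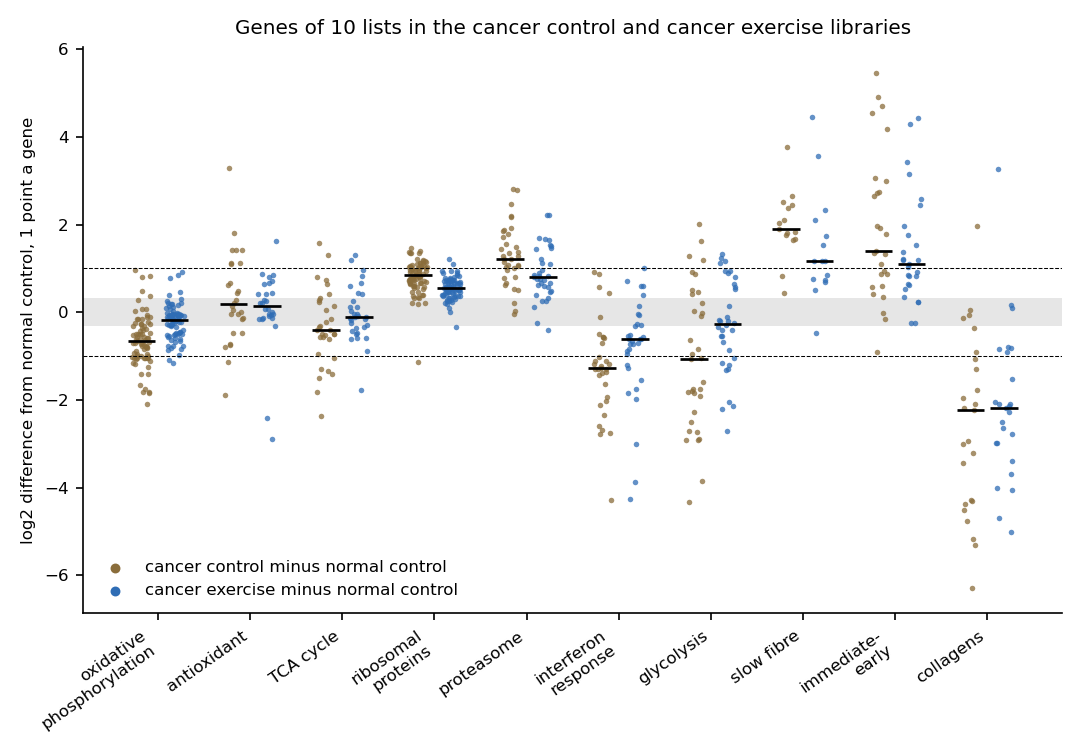
Every gene of 10 lists as 1 point, with its log2 difference from normal control on the vertical axis, brown for cancer control and blue for cancer exercise. Black bars are medians, the shaded band is the near range and the dashed lines mark 2-fold. The blue points of oxidative phosphorylation gather in and just below the band, most of those of ribosomal and proteasome genes lie above it, and most collagens lie below −1 in both groups.

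Of 24 genes of the sarcomere scaffold and its strain sensors, which form a single list, 7 were near, 11 higher and 0 lower. Titin (Ttn), Neb (nebulin, 35609, 27611, 31563 and 34828) and Tcap (telethonin, 24678, 14683, 18963 and 29964) were near. Ankrd1, the titin-bound ankyrin repeat protein CARP, was at 102, 352, 5249 and 3928, which is 38.1-fold above normal control. Its relative Ankrd2 was at 820, 1860, 19810 and 21753 (26.5-fold), and Flnc, the muscle filamin, at 607, 837, 9647 and 7101 (3.54). For all 3 the tumor-bearing libraries were close to each other and far above both others.

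Genes of slow muscle were higher. Of 15, 9 were at least 2-fold higher in cancer exercise, 0 lower and 0 near, with a median of 1.17, and in cancer control 13 were higher, with a median of 1.91. In normal exercise 6 were higher. Csrp3, the muscle LIM protein, was at 405, 642, 5540 and 4823 (3.57), Myoz2, a Z-disc protein of slow fibres, at 1232, 1962, 6713 and 6225 (2.34), and Sln, sarcolipin, the brake on the calcium pump, at 45.8, 138, 190 and 1029 (4.46). Sln differed from the other two in that its cancer exercise value was above its cancer control value. Myl3, the slow light chain, had the only negative difference of the list, at 3458, 4652, 6130 and 2474 (−0.48).

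Fast-fibre genes divided. Tnni2 and Tnnt3, the fast troponin I and T, and Myoz1 were near, at 0.07, 0.28 and −0.19. Myh1, the IIX myosin heavy chain, was higher, at 7701, 4450, 18990 and 16914 (1.14). The 7 genes that were 2-fold lower included the calcium-handling members of the list. Pvalb, parvalbumin, was at 246119, 152769, 13540 and 24440, 10.1-fold below normal control in cancer exercise (−3.33, counting interval −3.35 to −3.31). Casq1, the fast calsequestrin of the sarcoplasmic reticulum, was at 16247, 12783, 659 and 2626 (−2.63), and Myl1, the fast essential light chain, at 152769, 86115, 16394 and 37666 (−2.02). The fast list summed to 17.9% of normal control, 15.2% of normal exercise, 8.94% of cancer control and 9.70% of cancer exercise. Its median in cancer exercise was −0.55 with 3 genes near.

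Excitation-contraction coupling followed the same side. Of 25 genes, 9 were lower, 2 higher and 4 near. Mss51, a muscle mitochondrial gene of the list, was at 2462, 4450, 54.7 and 69.4 (−5.13), and Sypl2, mitsugumin 29 of the triad, at 3612, 2522, 140 and 543 (−2.73). Stac3, the adaptor of the voltage sensor, was at 368, 341, 83.6 and 67.2 (−2.44). The 2 higher were Sln, already given, and Cacng1, the γ subunit of the calcium channel, at 3953, 6054, 14552 and 17150 (2.12). The near ones were Tmem38a, Srl, Fkbp1a and Kcnj2.

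Among genes of the synapse and of denervated muscle, 6 of 19 were higher, 4 lower and 2 near. Chrna9, a nicotinic receptor subunit, lacked reads in both libraries without a tumor and was at 26.8 in cancer control and 224 in cancer exercise, at least 70.3-fold above normal control when the missing reads are set to the floor of 3. Musk, the receptor kinase of the end plate, was at 10.7, 64.9, 79.2 and 54.1 (2.24), and Chrna1, the muscle receptor α subunit, at 104, 166, 194 and 350 (1.74). Chrne, the adult ε subunit, was lower, at 62.7, 77.2, 11.8 and 23.9 (−1.36), and Ache, the esterase, at 41.4, 40.7, 0 and 10.9 (−1.84). Gdap1, a mitochondrial gene linked to nerve disease, went from 173 reads in normal control to none in cancer exercise, at least 56.6-fold lower.

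Atrophy genes stayed displaced. Of 22 ligases and FoxO-related genes, 12 were higher, 1 was lower and 6 were near, with a median of 1.06, and in cancer control 13 were higher with a median of 1.63. Trim63 was at 5950, 1828, 93779 and 41938, 7.05-fold above normal control (2.82, counting interval 2.78 to 2.86). Fbxo32 was at 3575, 812, 37250 and 18103 (5.06-fold). Ddit4 (REDD1), an inhibitor of mTORC1, was at 360, 380, 17486 and 7874 (21.8-fold), and Eif4ebp1, the translational repressor 4E-BP1, at 1107, 1188, 13596 and 13891 (12.5-fold). For Trim63, Fbxo32 and Ddit4 the cancer exercise level lay below the cancer control level and above both others, whereas for Eif4ebp1 the 2 tumor-bearing libraries were level. The near genes included Asb2, a ligase of muscle (6021, 2791, 983 and 4884), Nedd4 and Trim54. Foxo6 was lower, on 2 reads in cancer exercise (−4.46, counting interval −8.09 to −3.11).

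Proteasome genes were higher or between the limits in most cases. Of 35 subunits, 12 were at least 2-fold higher, 0 were 2-fold lower and 4 were near, with a median of 0.81, beside 25 higher and a median of 1.22 in cancer control. Psmd4 was at 2626, 3742, 18279 and 12304 (2.23), Psmd8 at 2192, 4314, 12152 and 10240 (2.22) and Psmc4 at 564, 1157, 3912 and 1838 (1.70). These 3 belong to the 19S cap, which recognises ubiquitin and unfolds substrates. Divided by subunit name after the values had been seen, 11 of 20 cap genes were 2-fold higher, with a median of 1.11, against 1 of 14 genes of the 20S core, with a median of 0.63. The core gene was Psma7, at 5548, 9795, 20100 and 17450. Psmb6 and Psmb7 of the core were near, and Psmd10, an assembly factor of the cap, had the lowest value of the list (−0.40). A test of the difference between cap and core was not made.

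Autophagy genes were split between near and higher. Of 32, 14 were near, 10 higher and 0 lower. Map1lc3b, the LC3 protein of autophagosomes, was at 2983, 4662, 10667 and 7738 (1.38), Ctsl, cathepsin L, at 1348, 1365, 13757 and 4522 (1.75), and Bnip3, a mitophagy receptor, at 2618, 2713, 16646 and 7086 (1.44). Pink1 and Bnip3l, both of mitophagy, and Ctsb, cathepsin B, were near. Sqstm1, the p62 cargo receptor, was at 3807, 3552, 19728 and 8846 (1.22).

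Ribosomal proteins were shifted together by less than 2-fold. Of 78, 2 were 2-fold higher, 0 were lower and 10 were near, with a median of 0.54, beside 26 higher and a median of 0.84 in cancer control and 70 near in normal exercise. Rps20 was at 12997, 17008, 35956 and 30131 (1.21). Large and small subunit genes had medians of 0.54 each. Rpl3l, the muscle form of Rpl3, had the lowest value of the list, at 5080, 4541, 2308 and 4005 (−0.34). Translation factors had the same median of 0.54 with 5 of 31 higher, among them Eif4ebp1 as above, Eif2b1 (1.54) and Eif4a1 (1.47).

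Glycolysis and glycogen genes spread to both sides. Of 34, 9 were lower, 4 higher and 7 near, with a median of −0.27, against 18 lower and a median of −1.06 in cancer control. Pygm, the muscle glycogen phosphorylase, was at 42083, 39347, 23509 and 35388, and Pfkm, the muscle phosphofructokinase, at 10440, 9959, 3110 and 8586, both near. The activating kinase of Pygm was not, since its subunit genes Phka1 (4055, 3422, 543 and 876) and Phkg1 (1061, 701, 139 and 241) differed by −2.21 and −2.14. Pgm2 was at 13615, 13853, 945 and 2073 (−2.71). On the high side stood Gpi1, glucose phosphate isomerase (2958, 3333, 9171 and 6955), and Gbe1, the glycogen branching enzyme (648, 624, 1220 and 1464). Aldoa, aldolase A, had 118867, 153831, 120526 and 206960, which is 0.80 above normal control and short of 2-fold. The list summed to 2.92% of normal control and 3.17% of cancer exercise. Aldoa, its most abundant gene, weighs heavily in these sums, and sums without it were not computed. They therefore do not describe the other genes.

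Genes of fat handling were more often higher than lower. Of 39 genes, 10 were higher and 2 lower, with a median of 0.31, beside 11.1% higher and 14.4% lower over all rows. The 12 near genes were 30.8% of the list, close to the 32.7% over all rows. Acot1, an acyl-CoA thioesterase, was at 11.8, 16.9, 247 and 158 (3.64), Plin5, which coats lipid droplets beside mitochondria, at 194, 63.8, 527 and 791 (2.03), and Pnpla2, the lipase ATGL, at 3018, 3342, 13748 and 10268 (1.77). The 2 lower were lipid-synthesis genes, Scd1 (8895, 3945, 367 and 596) and Fasn (2897, 5877, 134 and 1119). Fabp3, the muscle fatty acid carrier, Etfb and Hadh were near. Summed markers of fat cells were 0.481%, 0.286%, 0.370% and 0.433% of the 4 libraries. Of 15 of these markers, 5 were 2-fold lower in cancer exercise, 2 were higher and 1 was near. Lep, leptin, was among the lower and lacked reads in cancer exercise, and the 2 higher were Cidea and Plin4. Adipoq, adiponectin, was at 1939, 753, 604 and 1122, lower but short of 2-fold. The part of fat cells in the lipid genes was not tested. In a bulk sample fewer cells of a type and less RNA per cell cannot be told apart.

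Metallothioneins were among the 10 largest positive differences and were the most abundant genes among them. These small cysteine-rich proteins bind zinc and copper and are induced by metals, glucocorticoids and acute-phase cytokines. Mt2 was at 727, 731, 101914 and 71814, 98.7-fold above normal control in cancer exercise (6.62, counting interval 6.52 to 6.74). Mt1 was at 1293, 1383, 151924 and 94760, 73.2-fold above it (6.19, counting interval 6.11 to 6.28). The 2 libraries without tumor were alike and the 2 with tumor were both far above them. Slc39a14 (ZIP14), an importer of zinc and iron, was at 49.0, 33.1, 393 and 238 (2.26, counting interval 1.82 to 2.78). Of the 13 measured genes of the list these 3 were higher, 0 were lower and 5 were near, among them Mtf1, the metal-sensing factor (669, 820, 692 and 694), and Slc30a1, the zinc exporter of the plasma membrane (246, 393, 545 and 305).

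The promoters of the 2 metallothionein genes are shown because both genes differed alike and because the metal response element, the site that Mtf1 binds, has a short published core. Sequences are from RefSeq on GRCm38.p6 (mm10), 250 bases before to 50 bases after the annotated start, on the plus strand. Mt2 is protein-coding, and its window is chr8:94172368-94172667. The window of Mt1, also protein-coding and on the same strand a few kilobases away, is chr8:94178839-94179138. Capitals mark matches to the core TGCGCNC or TGCACNC on either strand.
Mt2: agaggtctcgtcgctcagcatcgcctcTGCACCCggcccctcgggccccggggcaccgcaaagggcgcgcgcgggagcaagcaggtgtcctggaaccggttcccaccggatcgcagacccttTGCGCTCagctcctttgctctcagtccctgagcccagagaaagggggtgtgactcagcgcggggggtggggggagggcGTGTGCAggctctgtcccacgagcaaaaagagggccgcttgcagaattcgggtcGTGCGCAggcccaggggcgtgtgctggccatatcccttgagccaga
Mt1: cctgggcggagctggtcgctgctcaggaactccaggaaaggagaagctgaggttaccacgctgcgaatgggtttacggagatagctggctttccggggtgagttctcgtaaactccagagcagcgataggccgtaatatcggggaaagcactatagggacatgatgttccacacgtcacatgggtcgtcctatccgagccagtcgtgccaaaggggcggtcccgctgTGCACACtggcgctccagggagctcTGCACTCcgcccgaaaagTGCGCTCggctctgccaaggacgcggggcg
The window of Mt2 held 4 matches and that of Mt1 held 3, none overlapping another. Of 32851 RefSeq promoter windows of this length, 25.7% held at least 1 match, 1.97% at least 3 and 0.517% at least 4. The window of Slc30a1, which was near, held 2 matches. A match is a string of letters and not a measured binding site.

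**Figure D4:**
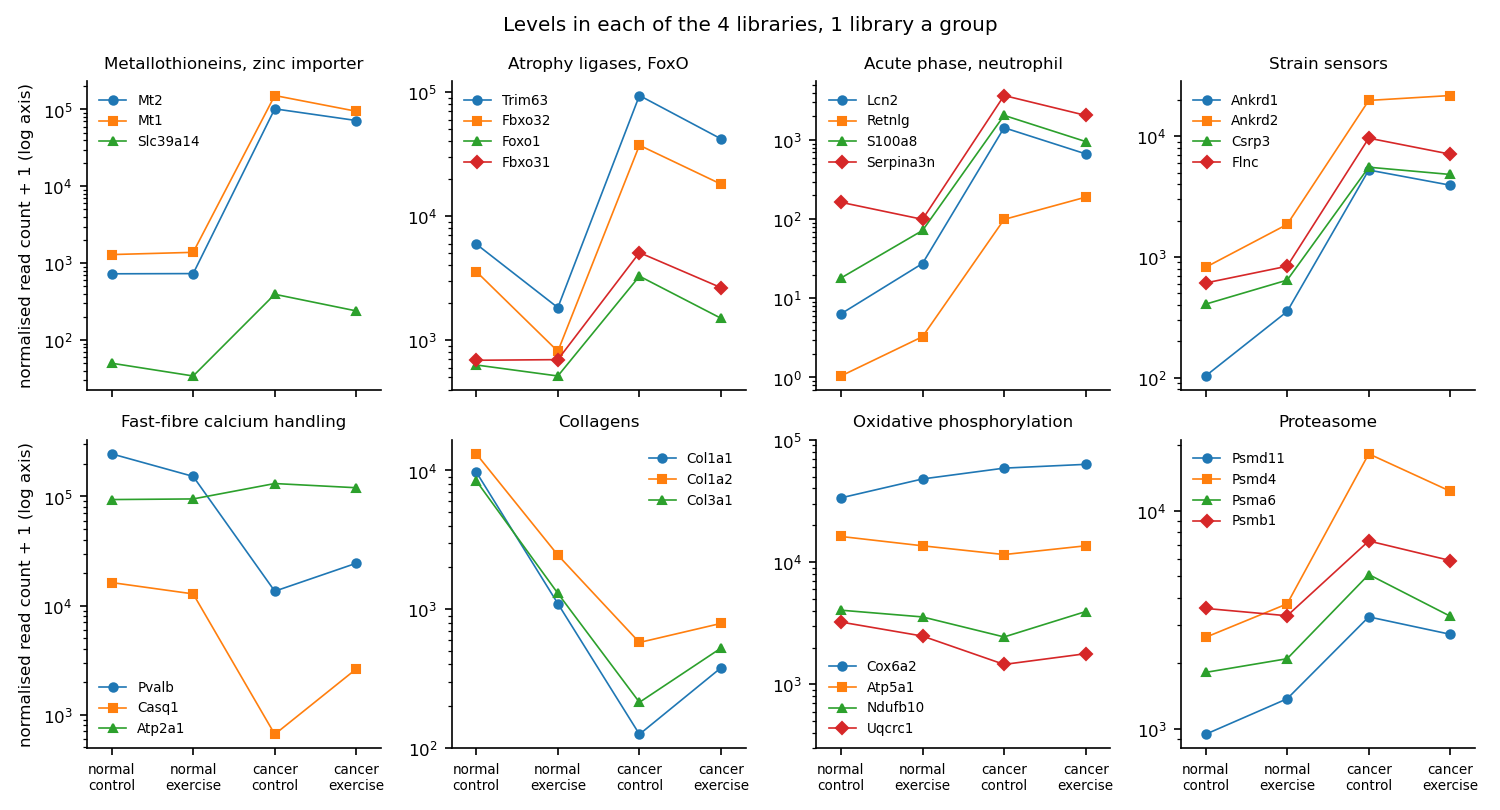
Normalised read count plus 1 (log axis) in each of the 4 libraries for genes of 8 groups, 1 library a group. Lines only join the values of a gene. Metallothioneins, atrophy ligases, acute-phase genes and strain sensors are high in both tumor-bearing libraries, Pvalb and Casq1 are low there, the collagens are highest in normal control, and none of the 4 respiratory genes shown varies by as much as 3-fold.

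Acute-phase genes, which encode secreted proteins of the systemic response to inflammation, were more often higher than lower. Of 23, 11 were higher, 2 lower and 3 near, with a median of 0.78, against 14 higher and a median of 2.56 in cancer control. Here too a gene could pass the minimum on its cancer exercise value alone, so these counts follow in part from the minimum. With a minimum of 16 in both libraries the cancer exercise median was 0.325. Lcn2, lipocalin 2, which binds bacterial iron carriers, was at 5.37, 26.6, 1434 and 669 (6.72, counting interval 5.75 to 8.60). The serum amyloid genes were Saa1, at 3.24, 0, 908 and 207 (5.62, counting interval 4.45 to 8.31 on 3 reads in normal control), and Saa2, which lacked reads in normal control, at least 12.9-fold higher. Serpina3n, a serine protease inhibitor, was at 163, 98.7, 3662 and 2054. Crp, C-reactive protein, went from 19 reads in normal control to none, at least 6.22-fold lower. The liver markers went the other way in cancer exercise, where 5 of 9 were 2-fold lower, with Alb at 373, 100, 594 and 77.0. In cancer control 6 of 9 were higher and 1 was lower, and in normal exercise 8 were lower. They summed to 0.0179%, 0.00229%, 0.0238% and 0.0105% of the libraries.

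Neutrophil markers moved with the acute-phase genes. Of 16 listed, 8 passed the minimum, of which 7 were higher and 0 near, with a median of 4.71, or 4.07 with genes at 0 reads set to the floor. A marker could pass on its cancer exercise value alone, so these counts follow in part from the minimum. With no minimum the median was 2.49. S100a8, a calcium-binding alarmin, was at 17.1, 71.2, 2054 and 958 (5.73). Retnlg was at 189 in cancer exercise, 98.5 in cancer control and without reads in normal control, at least 59.4-fold higher, and Chil3, also without reads there, was at least 20.7-fold higher. The list summed to 0.00201%, 0.00298%, 0.0277% and 0.0199% of the libraries, and Ngp, Mpo and Elane, the granule genes of immature cells, lacked reads in both compared libraries. Macrophage markers summed to 0.0502%, 0.0574%, 0.0920% and 0.0894%, and 4 of 14 were higher, among them Cd68 (92.6, 94.7, 1024 and 319), while Csf1r and Mrc1 were near. The part of these cells in the acute-phase and cytokine genes was not tested.

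The IL-6 and STAT3 list had 9 of 21 higher, 4 lower and 3 near. Cebpd, a transcription factor of the acute phase, was at 628, 481, 7648 and 4281 (2.77), and Socs3, the feedback inhibitor of the receptor, at 161, 164, 859 and 945 (2.55). Myc was at 44.3 in cancer exercise and had 1 read in normal control (4.42, counting interval 2.82 to 10.72). Cntfr, the receptor of ciliary neurotrophic factor, was lower, at 53.1, 42.2, 23.6 and 7.65 (−2.65), and so was Cish, a target of STAT5, at 1341, 50.1, 296 and 523 (−1.36). The NF-κB and TNF receptor list had 5 of 21 higher and 4 near, against 14 higher in cancer control. Tnfrsf12a, the receptor Fn14 of the cytokine TWEAK, was at 20.3, 84.2, 241 and 326 (3.94). Icam1 and Chuk were near, at 67.0, 29.0, 165 and 67.2 and at 88.3, 135, 186 and 86.7.

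Interferon-stimulated genes lay on the low side. Of 33, 9 were lower, 1 higher and 6 near, with a median of −0.62, against 23 lower and 1 near in cancer control. Ifit3, an antiviral effector, was at 157, 93.3, 22.6 and 9.82 (−3.87), Gbp6, a guanylate-binding protein, at 225, 78.6, 110 and 27.1 (−3.01), and Iigp1, the most abundant of the list, at 670, 626, 110 and 229 (−1.55). Irf1, Psmb8 and Psmb10 were near. All 6 measured genes of a class II set were at least 2-fold lower, with a median of −1.80, and in cancer control with a median of −2.11. The set did not include Ctss, cathepsin S, which was the 1 higher gene of the antigen presentation list (1.285). H2-Aa was at 1535, 1410, 437 and 398 and H2-Ab1 at 610, 737, 124 and 91.0. Of the class I genes H2-D1 was near, at 5732, 6338, 5728 and 4717, whereas H2-K1 was at 955, 1301, 1183 and 570 (−0.74), and the class I partners B2m (−0.38) and Tapbp (−0.60) lay between the near and the displaced limits. Lymphocyte markers were mostly below the minimum, with 2 of 17 measured.

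The glucocorticoid target list, which also holds the receptor gene and Hsd11b1, had 11 of 20 genes displaced, 10 higher and 1 lower. Besides Lcn2 and Ddit4, Cdkn1a, the cell-cycle inhibitor p21, was at 404, 272, 8598 and 3668 (3.18), Klf9 at 4098, 2756, 10099 and 7664 (0.90) and Tsc22d3, GILZ, at 3443, 3602, 5430 and 5133 (0.58). Nr3c1, the receptor itself, was the 1 lower gene, at 1253, 1107, 884 and 626, just at the 2-fold limit. Hsd11b1, which regenerates the hormone in tissue, and Dusp1 were near. Clock genes were higher in 7 of 20 and near in 4. Ciart lacked reads in normal control and was at 19.3, 170 and 58.5 in the others, at least 18.3-fold higher in cancer exercise. Per1, a clock gene that glucocorticoids induce, was at 41.5, 45.2, 649 and 286 (2.75), Dbp was lower, at 365, 388, 171 and 114 (−1.67), and Arntl, the activator Bmal1, was near. The hour of tissue collection and the time since the last run are not given in the sources used here.

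Immediate-early genes, which respond to stimuli within minutes to hours, were higher in 15 of 27, lower in 0 and near in 4, with a median of 1.105 against 1.41 in cancer control. Nr4a3, a nuclear receptor known to respond to contraction, was at 10.7, 17.7, 96.3 and 124 (3.42), and Fosl1, without reads in normal control, was at 19.5 in cancer exercise, at least 6.11-fold higher. Jun was at 1238, 725, 661 and 2231, with cancer exercise as the highest library. Klf2, Klf4 and Dusp1 were near. Among 27 heat shock genes 5 were higher, 0 lower and 7 near. The 3 with the largest differences were small heat shock proteins, Hspb7 (246, 756, 4290 and 4308), Hspb6 (8134, 13381, 23607 and 47183) and Hspb1 (4955, 4783, 30152 and 22072). Hspb8 and the mitochondrial chaperonin Hspd1 were near. Of 26 genes of the integrated and endoplasmic reticulum stress response, 7 were near, 4 higher and 2 lower, with Xbp1 at 589, 445, 1565 and 1954.

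Collagens were the most displaced list among those with at least 20 genes. Of 25 chains, 18 were at least 2-fold lower, 1 was higher and 2 were near, with a median of −2.19. Cancer control had 19 lower with a median of −2.22, and normal exercise had 14 lower with a median of −1.12. Col1a1, the α1 chain of type I collagen, was at 9741, 1096, 124 and 377, which is 25.8-fold below normal control (−4.69, counting interval −4.85 to −4.54). Col1a2 was at 13178, 2453, 574 and 789 (16.7-fold) and Col3a1 at 8421, 1300, 212 and 523 (16.1-fold). All 6 chains of the fibrillar types I, III and V were at least 2-fold lower in each of the other libraries than in normal control. Normal control was thus the highest library for each of these 6. Fibrillar chains of other types were not part of this count. Col4a1 and Col4a2, the basement membrane chains, were near, at 2070, 1239, 1611 and 2215 and at 996, 727, 948 and 1119. Col19a1 was the 1 higher, at 7.50, 13.6, 32.1 and 81.1 (3.27).

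Other matrix proteins followed, with 17 of 34 lower, 0 higher and 6 near. Fmod, fibromodulin, which binds collagen fibrils, was at 2343, 815, 47.2 and 209 (−3.48), and Fn1, fibronectin, at 1703, 789, 622 and 432 (−1.98). Basement membrane laminins Lama2 and Lamb1 and elastin (Eln) were near. The remodelling enzymes differed from their substrates, with 10 of 30 higher and 7 lower. Adamts4 (8.56, 8.76, 38.5 and 71.4), Mmp3 (11.8, 16.1, 74.9 and 85.5) and Mmp11 (57.5, 112, 302 and 254) were higher, and Loxl2, a collagen cross-linking enzyme, was lower, at 434, 289, 114 and 82.4.

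Markers of tendon and of fibroblasts moved with the matrix genes. Of 11 tendon markers 10 were 2-fold lower and 0 near, with a median of −3.48 and −5.58 in cancer control, and the list summed to 0.100%, 0.0508%, 0.0140% and 0.0355% of the libraries. Tnmd, tenomodulin, was at 769, 187, 15.1 and 10.9 (−6.01), and Chad, chondroadherin, at 341, 202, 0 and 1.15 on 1 read in cancer exercise (−7.32, counting interval −13.61 to −5.81). Of 15 fibroblast markers 8 were lower and 2 near, with sums of 0.956%, 0.740%, 0.454% and 0.490%, and Dcn, decorin, was at 57888, 37431, 35363 and 34756. Their median was −1.42, the lowest of them was Serpinf1 (−2.75), and none lacked reads in either library. How much tendon was dissected with each muscle is not given in the sources used here, and its part in the collagen values was not tested.

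Polyamine genes were displaced on both sides. Amd1, S-adenosylmethionine decarboxylase, was at 12211, 5456, 484 and 588 (−4.37), and Amd2, a near-identical copy whose reads may be shared with it, at 15770, 6821, 610 and 738. Smox, spermine oxidase, was at 2598, 2861, 265 and 367 (−2.82). Srm, spermidine synthase, was higher, at 37.3, 98.8, 246 and 378 (3.31), and Arg1, arginase 1, was at 4.31, 1.47, 285 and 36.9 (2.84). Arg2, Azin1 and Sat2 were near. Secreted muscle factors were lower in 7 of 16, beside 10 lower in cancer control and 8 lower in normal exercise, each against normal control. Ostn, musclin, was at 927 in normal control and 15.2 in cancer exercise (−5.84). Apln, apelin, was at 88.1, 23.4, 18.3 and 9.82 (−3.04), and Sparc, a collagen-binding matrix protein, at 16739, 5212, 4374 and 3742 (−2.16). Nampt was the 1 higher (1.05).

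Genes of the imprinted growth network were lower in 8 of 16, higher in 2 and near in 3. Dlk1, an inhibitor of fat cell formation, went from 84 reads in normal control to none in cancer exercise, at least 27.5-fold lower, and Peg3, a paternally expressed zinc finger gene, was at 30.8, 21.1, 25.7 and 5.48 (−2.30). Peg10 was higher, at 4.31, 9.58, 48.1 and 57.3 (3.46). Igf2, Igf2r and Grb10 were near, and H19, the noncoding neighbour of Igf2, was at 6507, 9305, 11236 and 17990 (1.47). Iron genes were displaced in 10 of 20. Tfrc, the transferrin receptor, was at 1330, 1748, 126 and 159 (−3.05), Hfe2, hemojuvelin, at 6793, 6644, 824 and 1530 (−2.15), and Hamp2, a hepcidin gene, at 52.2, 1930, 5366 and 1990 (5.23). The ferritin light chain Ftl1 and the ferritin cargo receptor Ncoa4 were near.

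Summed red cell markers were highest in cancer exercise and lowest in normal exercise. Of 12, 8 were 2-fold higher, 1 lower and 1 near in cancer exercise. In cancer control 1 was higher and 2 were lower, and in normal exercise 9 were lower. They summed to 2.76%, 0.631%, 2.77% and 5.84% of the 4 libraries. Alas2, the erythroid enzyme of heme synthesis, was at 557, 126, 642 and 1443 (1.37), and Hbb-bs, a β-globin whose reads cannot be parted from its near-identical copies, at 63522, 11449, 66128 and 153725. Slc4a1, the band 3 anion exchanger, was at 3.24, 2.28, 0 and 89.5 on 3 reads in normal control (4.42, counting interval 3.22 to 7.12). Schwann cell markers were lower in cancer exercise in 7 of 12 cases, against 4 lower and 3 higher in cancer control and 2 lower in normal exercise. Mbp, myelin basic protein, was at 1657, 877, 1809 and 520, and the list summed to 0.0539%, 0.0340%, 0.0625% and 0.0211%. The part of blood and nerve content in other values was not tested.

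**Figure D5:**
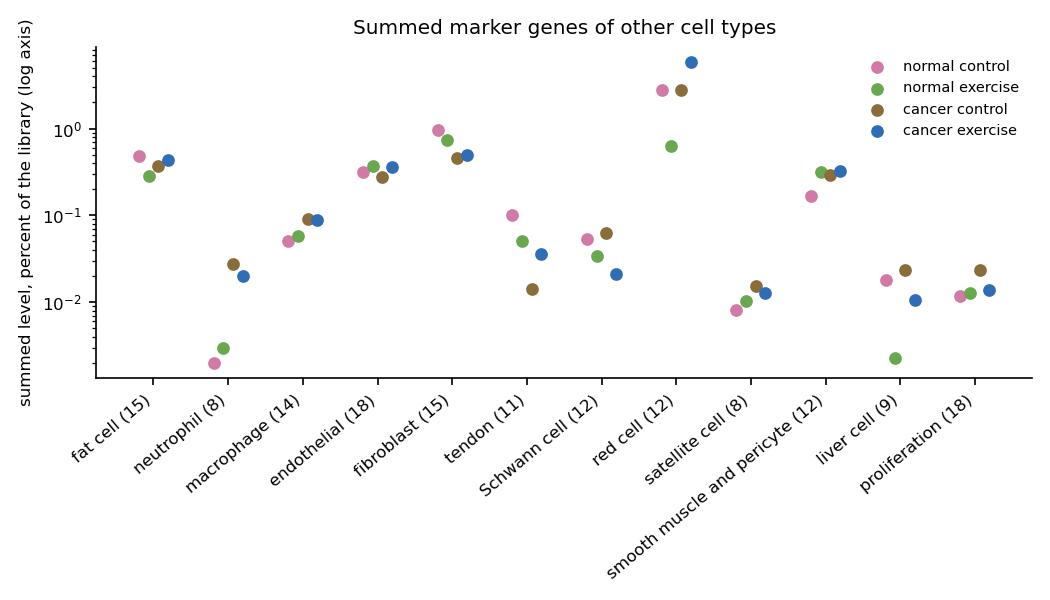
Summed level of 12 marker lists of other cell types, as a percent of each library (log axis), with 1 point for each of the 4 libraries and the number of markers measured in parentheses. Red cell markers are highest in cancer exercise at 5.84%, neutrophil markers are higher in both tumor-bearing libraries than in the others, and tendon markers are lower there.

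The largest differences over all genes with a level of at least 64 in 1 of the 2 libraries repeated some of these pathways. Chrna9, Retnlg, Lcn2, Mt2 and Mt1 were among the 10 largest positive differences, together with Clec4d, a myeloid lectin receptor (no read in normal control, at least 31.9-fold higher), Stc2, stanniocalcin 2 (at least 31.6-fold), Ttc9 (at least 21.4-fold), the predicted gene Gm8013 (at least 25.1-fold) and Serpina3h, on 1 read in normal control (6.02, counting interval 4.50 to 12.32). Gm8013 and Ttc9 were also present without a tumor, at 30.7 and 51.1 in normal exercise, so that normal control was the low library for both. Among the 10 largest negative differences Cdh4, R-cadherin, was at 617, 663, 3.27 and 0, at least 190-fold lower. Gdap1, Chad and Dlk1 are given above. Ptger3, a prostaglandin E receptor, went from 107 reads to none, Prnd was at least 31.4-fold lower and Hcar1, the lactate receptor, at least 23.2-fold, each without reads in cancer exercise. 1500015O10Rik was at 318, 22.5, 6.48 and 1.15 on 1 read in cancer exercise (−7.21, counting interval −13.51 to −5.71). Prnd, Dlk1 and Hcar1 were low in normal exercise too, where Prnd lacked reads, Dlk1 was at 4.70 and Hcar1 at 3.90, so that normal control was the high library for all 3. Gm4841, an interferon-inducible GTPase gene, was at 681, 887, 17.2 and 4.40 (−6.98), and Cntnap2 was at 183, 330, 4.34 and 1.15 on 1 read (−6.42, counting interval −12.71 to −4.90).

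Genes near in cancer exercise while far from normal control in cancer control were listed by their difference in cancer control. On the high side were Fam214a (135, 104, 753 and 111), the mast cell tryptase Tpsab1 (64.9, 64.7, 362 and 66.1), Zfp703 (349, 407, 1826 and 407), 1500011B03Rik (131, 140, 617 and 157) and Gadd45g, a stress-response gene (498, 248, 2188 and 422). On the low side were Arxes2, an adipocyte gene (141, 37.2, 0 and 145), the homeobox gene Hoxd10 (88.3, 81.9, 2.20 and 75.8), the rhomboid-like Rhbdl1 (94.7, 123, 4.34 and 114), Zfhx2 (143, 156, 7.56 and 115) and Tbc1d10c (118, 262, 6.48 and 101). The rule chose these genes for this pattern in the same libraries, so their values only describe it.

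Of a larger set of candidate genes that the study chose on these libraries, the 13 named in its text were examined, and they are no independent evidence of a direction. In cancer exercise against normal control 4 were higher, 3 lower and 1 near. Trim63 (2.82), Maff, a small Maf factor (3.15), Ifrd1 (2.09) and Tnnc1, the slow troponin C (1.17), were higher, and Col1a1 (−4.69), Col3a1 (−4.01) and Col5a2 (−2.78) were lower. Asb2 was near at −0.30. Fos (20.3, 7.13, 133 and 36.8), Myl6b (30.9, 67.2, 198 and 53.1), Osr2 (53.2, 122, 308 and 79.1), Six2 (265, 613, 54.7 and 175) and Il15 (229, 86.7, 48.2 and 120) lay between the near and the displaced limits. In cancer control, on the same normal control library, 7 were higher, 6 lower and 0 near.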

How the data were processed

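Gastrocnemius RNA of 4 groups, 1 library each, was profiled with QuantSeq 3′ mRNA sequencing. According to the methods the authors used Bowtie2 for alignment and bedtools for counts per gene, which edgeR then quantile normalized. The submitters' processing notes name mm10, and the annotation is not given in the sources used here. The deposited values are log2 of the normalised read count plus 1 for 23282 rows (23238 symbols, with 79 rows sharing one).

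Differences of the deposited log2 values were taken with a pseudocount of 1, which understates differences of low genes. Reads were rebuilt from the steps in the values by fitting 1 scaling factor per library and 1 dispersion (0.340), and 100% of values lay within 0.0006 on the log2 scale of the value that a whole number of reads gives. For 93.8% to 95.5% of the values in a library only 1 count met that tolerance. They were used for counting intervals, floors of 3 reads and rescaling. Step recovery and scaling were tested on simulated data. Genes without reads carry small values above 0 in 3 libraries. As there is 1 library a group, no p-value is given.

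Named genes were, in each list, up to 3 of the largest differences either way past 2-fold, up to 3 near genes and the most abundant genes, plus the 10 largest differences each way, 10 genes near in cancer exercise and not in cancer control, and 13 candidates named by the study. Others were chosen after their values were seen. The comparison, members and 54 lists were chosen with earlier results of these data known. Alternatives were 3 rescalings (by library total, by trimmed means of M values and by medians of ratios), smaller and larger pseudocounts, other minimums, other folds, and leaving out rows with shared symbols. Python 3.11.15, numpy 2.4.6, scipy 1.17.1 and pandas 2.3.3 were used.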

Additional observations from a re-analysis of the deposited data

How the results depend on the processing

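No paired analysis was possible because each group has 1 library, and no library could be left out. Under the 3 rescalings, 2 pseudocounts and 4 minimums, 466 medians of 52 lists were recomputed. All stayed within the binomial 95% interval of the median as reported. That interval reflects the spread of genes within a list and is wide for short lists, so it is a loose limit. The neutrophil median ranged from 2.49 to 5.66, the tendon median from −3.66 to −2.08 and the liver median from −1.08 to −0.56. The 12 of these lists with a median past 1 in size kept its sign. The keratinocyte and lymphocyte lists, with 3 and 2 genes measured, were not recomputed. Medians of the metallothionein, proliferation, satellite cell and candidate lists changed sign under at least 1 setting. Of 36 recomputed counts of genes, 26 were less than 1.5 times away from the count given. With no minimum 2431 genes were 2-fold higher and 3172 lower, a minimum of 64 gave 1070 lower, and a minimum of 16 in both libraries gave 1131 lower. At 4-fold 385 were higher and 622 lower, and at 1.5-fold 2748 and 3073. Near genes numbered 6686 within 1.5-fold and 1834 within 1.1-fold. The share of higher among displaced genes was 43.4% as reported and ranged from 38.2% to 47.2%. Depth limits genes with few reads, and 194 of the rows compared had 0 reads in 1 of the 2 libraries.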

Other observations

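Some marker lists did not enter the comparisons above. Endothelial markers were near in 6 of 18 cases, which is 33.3% beside 32.7% over all rows. The 3 higher were Rgcc, Vwf and Esam, and the 1 lower was Kdr. The list summed to 0.313% and 0.374% of normal control and normal exercise, and to 0.274% and 0.361% of cancer control and cancer exercise, the order also used below. Cdh5, VE-cadherin, and Tie1, an endothelial receptor kinase, were near in cancer exercise at 0.08 and −0.06, and Vwf, von Willebrand factor, was at 81.9, 109, 167 and 223. Of 12 smooth muscle and pericyte markers 4 were near (33.3%), among them Myh11 and Rgs5, while 2 were higher and 3 lower. Notch3, a mural cell receptor, was among the lower, at 197, 164, 50.4 and 83.4.

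Of 8 satellite cell markers, 1 was higher, 1 lower and 2 near. Pax7, the stem cell factor, was at 24.4, 22.1, 2.20 and 0, at least 7.53-fold lower in cancer exercise than in normal control, whereas Myf5 was near, at 41.4, 14.5, 6.48 and 33.5. Myod1, chosen after its values were seen, was at 306, 289, 21.5 and 213, and Myog, which drives differentiation, at 76.6, 174, 206 and 185 (1.26). Of 18 proliferation genes 5 were near, 3 higher and 2 lower in cancer exercise, against 9 higher in cancer control. Top2a, a topoisomerase of dividing cells and also chosen after its values were seen, was at 20.2, 12.8, 103 and 17.4. Keratinocyte markers had 3 of 14 measured, all 2-fold lower in cancer exercise, with Krt10 at 192, 191, 218 and 82.3.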
